A study of Arabidopsis thaliana with 6 samples.

Results

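The RALF-like genes of Arabidopsis thaliana were followed in microdissected root meristems, as the 11 probe sets whose annotated gene symbol is RALFL and a number, out of 22746 probe sets that are not controls. Each of the 11 stands for 1 gene, and the rule itself uses only the symbol. Of these, 6 genes were expressed well above the floor of the array in all 6 arrays (RALFL22, RALFL24, RALFL31, RALFL32, RALFL33 and RALFL34), 4 lay at the floor in all 6 arrays (RALFL18, RALFL25, RALFL26 and RALFL28), and RALFL27 lay between. The gene table of assembly TAIR10.1 lists 34 genes of the RALF family, and the other members, RALF1 and RALF23 among them, were not analysed here.

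The plants carried 35S:miR396, a transgene that expresses the microRNA miR396 from the 35S promoter of a plant virus, active in most tissues (3 arrays), or were wild type (3 arrays). All were untreated seedlings at 7 days after sowing, and the labels name neither the accession nor the number of transgenic lines. They call the samples biological replicates without saying how the plants were kept apart, and the p-values therefore cover only the scatter among these 6 samples, which may be technical. Levels are log2 values made by the authors with GCRMA, which removes background according to the sequence of each probe, brings the arrays to a common scale and gives 1 value per probe set.

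RALF peptides (rapid alkalinization factors) are small cysteine-rich secreted peptides. They are cut from longer precursors, some of them by the subtilase S1P, and act in the cell wall on receptor kinases of the CrRLK1L family, of which FERONIA (FER) is the best studied, together with GPI-anchored LLG coreceptors and LRX proteins of the wall. In roots the founding member RALF1 acts through FERONIA to inhibit a plasma membrane proton pump, which raises the pH of the wall space and slows cell elongation. miR396 represses growth-regulating factor (GRF) genes and thereby acts on cell proliferation. Neither miR396 nor the GRF genes were analysed here, so the labels alone give the genotype.

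The comparison asks which RALF-like transcripts differ in the meristem when miR396 is overexpressed. Testing was limited to probe sets that reached a log2 value of 4 in 3 or more of the 6 arrays, whatever their genotype. This left 11364 probe sets, of which limma called 2838 (adjusted p under 0.05; 1438 higher and 1400 lower in 35S:miR396). The first principal component of the tested probe sets accounted for 70.4% of the variance and set the genotypes apart, with scores of 37.9, 11.3 and 27.2 in replicates 1, 2 and 3 of 35S:miR396 and from -28.9 to -22.9 in wild type. Replicate 2 of 35S:miR396 thus lay nearest to wild type, and the values below are given without it where that changes a call. The 6 tested RALF-like genes had all 6 values above 4, so their testing did not depend on 1 group being high.

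Of the 6 tested RALF-like genes, RALFL32 and RALFL22 rose in 35S:miR396, RALFL31 fell, and the other 3 did not pass the test. The 3 called genes are to be read against the 25% of all tested probe sets that were called, 12.7% higher and 12.3% lower. The change of RALFL32 was the largest of the 6, about 2-fold, while those of RALFL22 and RALFL31 were 1.18-fold and 1.22-fold. The median log2 fold change was 0.03 over the 6 genes and -0.01 over all tested probe sets. At 4 of the 6 genes the values of the groups were fully separate, against 45.7% of all tested probe sets.

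**Figure D1:**
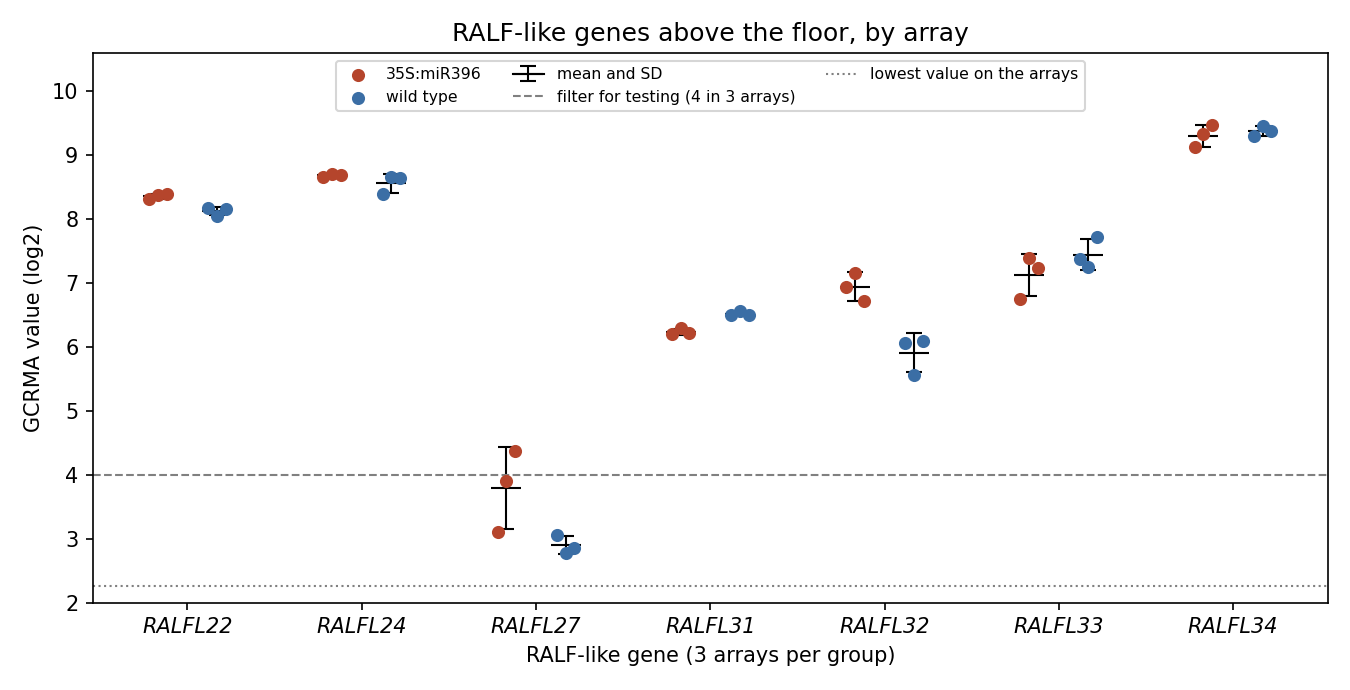
Log2 GCRMA value of each array (points) for the 7 RALF-like genes that were not at the floor in all arrays, with 35S:miR396 left of wild type and black bars for the mean and SD of 3 arrays; the dashed line is the filter at 4 and the dotted line the lowest value on the arrays. RALFL32 is higher in all 3 arrays of 35S:miR396 (6.72 to 7.17, against 5.56 to 6.10 in wild type), and RALFL33 and RALFL34 overlap between the groups.

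RALFL32, which encodes a RALF-like peptide, had log2 values of 6.94, 7.17 and 6.72 in replicates 1, 2 and 3 of 35S:miR396, against 6.07, 5.56 and 6.10 in wild type. Every 35S:miR396 array lay above every wild-type array, and the groups were 0.62 apart. The spread within either group was smaller than that gap, with a range of 0.45 in 35S:miR396 and 0.54 in wild type. RALFL32 averaged 6.94 ± 0.22 in 35S:miR396 and 5.91 ± 0.30 in wild type (SD, n = 3 each). It was 2.04-fold higher, a log2 fold change of 1.03 ± 0.18 (SE) with a 95% interval from 0.61 to 1.45 (limma, adjusted p = 0.00962). Its call held without any single array, at log2 fold changes from 0.86 without replicate 2 of wild type, where it is lowest, to 1.14 without replicate 3 of 35S:miR396. When replicate 2 of 35S:miR396 was left out, the array where RALFL32 was highest, the value was 0.92 (adjusted p = 0.0136). The call was lost with no filter on low values (adjusted p = 0.0676, against 0.00336 to 0.0317 over the other alternatives), where 22746 probe sets were tested and 4.14% were called.

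The tested genes of a list of root meristem markers also rose. Of 12 genes on that list, 4 had a named probe set, and the 3 that could be tested all rose in 35S:miR396. Of all tested probe sets, 12.7% were called higher. The list was chosen with earlier results of these data known, so this count is a description and no independent support. BBM, an AP2-domain factor of the root stem cell niche, rose by 1.50 ± 0.14 (log2, SE), and AGL42, a MADS-box gene of the quiescent centre, by 0.68 ± 0.14. UPB1, a bHLH factor that acts where cells leave the meristem and so marks its edge more than its dividing cells, rose by 1.08 ± 0.22. The fourth, CR4, a receptor kinase gene of the root tip, stayed between 2.75 and 3.22. The summed log2 level of the 4 ran from 23.1 to 24.1 in 35S:miR396, against 19.9 to 20.5 in wild type. Their part in the changes of RALF-like genes was not tested, and in dissected tissue more cells of a type and more RNA per cell cannot be told apart. Of 8 markers of root hairs and the differentiation zone, 2 had a named probe set, EXPA7 and EXPA18. They did not exceed 2.38 in any array, near the lowest value on the arrays (2.25). The single shoot marker of 8 with a named probe set, RCA, lay between 2.26 and 2.42 in all arrays. Of 5 pollen markers, 2 had a named probe set, and MGH3 lay at 2.45 and AT1G29140 at 2.25 in all arrays.

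RALFL31, another RALF-like peptide gene, had values of 6.20, 6.29 and 6.22 in 35S:miR396, against 6.51, 6.56 and 6.50 in wild type. The 2 groups were 0.21 apart, and both were tight, with ranges of 0.09 in 35S:miR396 and 0.07 in wild type. RALFL31 averaged 6.24 ± 0.05 in 35S:miR396 and 6.52 ± 0.04 in wild type (SD, n = 3 each). It fell 1.22-fold, a log2 fold change of -0.28 ± 0.08 (SE) with a 95% interval from -0.47 to -0.10 (limma, adjusted p = 0.0413). The call was lost without replicate 1 (-0.26) or 3 (-0.28) of 35S:miR396 and without replicate 1 (-0.29), 2 (-0.26) or 3 (-0.30) of wild type, with adjusted p from 0.0912 to 0.137, and it held without replicate 2 of 35S:miR396 (-0.31, adjusted p = 0.0336).

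RALFL22 encodes a peptide that signals through FERONIA and is among the RALFs known from the stigma, where they act in the recognition of pollen. Its values were 8.31, 8.38 and 8.39 in 35S:miR396, against 8.17, 8.05 and 8.16 in wild type. The groups did not overlap, with a gap of 0.14 between them. RALFL22 averaged 8.36 ± 0.04 in 35S:miR396 and 8.13 ± 0.07 in wild type (SD, n = 3 each), a 1.18-fold rise. The log2 fold change was 0.23 ± 0.07 (SE) with a 95% interval from 0.07 to 0.40, and it passed the threshold narrowly (limma, adjusted p = 0.0491). Leaving out any single array ended the call of RALFL22. The log2 fold change was 0.26, 0.23 and 0.22 without replicates 1, 2 and 3 of 35S:miR396 and 0.26, 0.20 and 0.25 without replicates 1, 2 and 3 of wild type, with adjusted p from 0.0678 to 0.166. Centring each array on its median over all probe sets lowered it to 0.15 (adjusted p = 0.141), a change of more than 1.5-fold in the value.

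**Figure D2:**
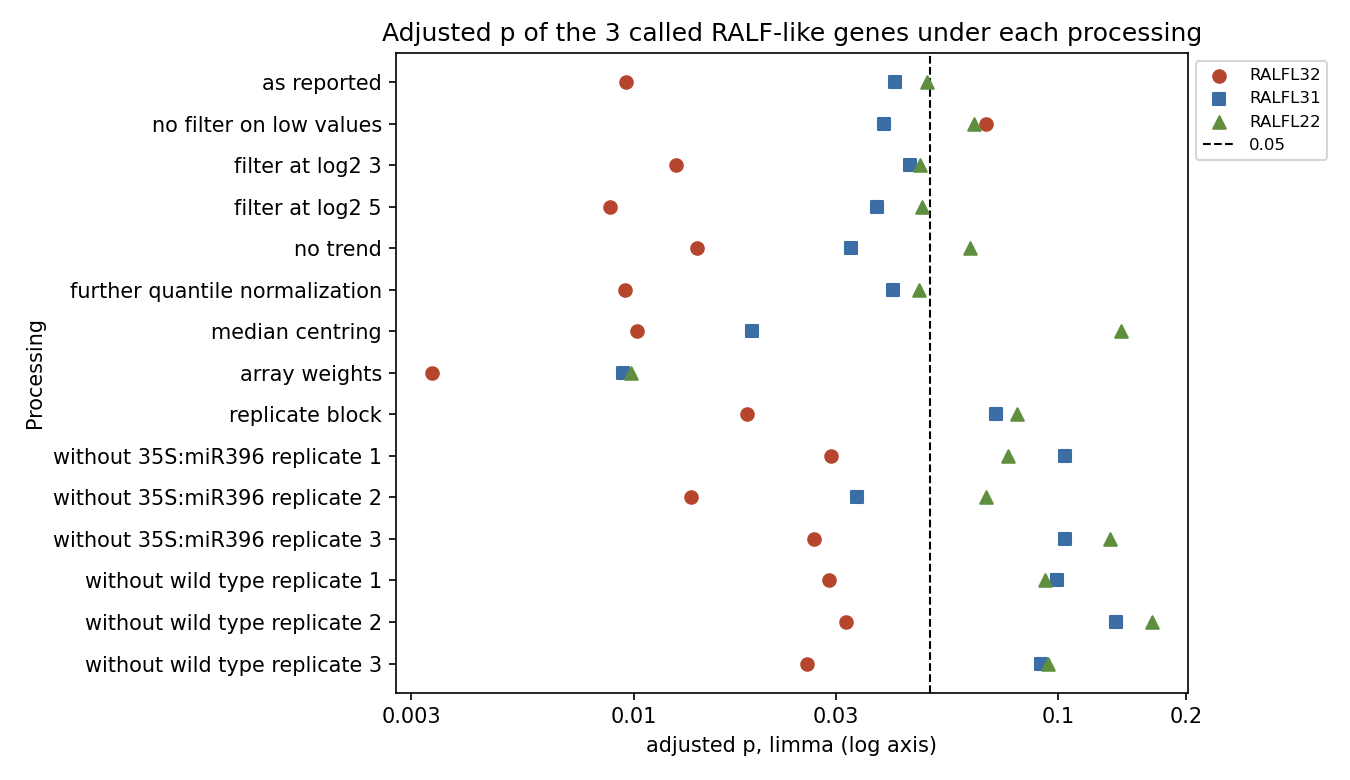
Adjusted p from limma (log axis) of RALFL32, RALFL31 and RALFL22 as reported and under the 14 alternatives, with the dashed line at 0.05. RALFL32 stays left of the line except with no filter on low values (0.0676), whereas RALFL22 lies right of it without any single array (0.0678 to 0.166).

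The 3 genes that did not pass the test differed in how far their groups overlapped. RALFL24, a RALF-like peptide gene, had values of 8.66, 8.71 and 8.69 in 35S:miR396, against 8.39, 8.66 and 8.64 in wild type. Its groups were separate by only 0.0064, and replicate 1 of wild type was the low array. The log2 fold change was 0.12 ± 0.09 (SE; 95% interval -0.08 to 0.33, adjusted p = 0.323). It was 0.04 without that array and 0.04 with each array centred on its median.

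RALFL33 encodes a close relative of RALF23, and both are known to dampen immune signalling through FERONIA. It had values of 6.75, 7.39 and 7.24 in 35S:miR396, against 7.37, 7.24 and 7.72 in wild type. The lowest array was replicate 1 of 35S:miR396 and the highest replicate 3 of wild type, and the other 4 values of the 2 groups were interleaved. RALFL33 stood at -0.32 ± 0.19 (log2 fold change, SE; adjusted p = 0.249), with the widest 95% interval of the 6 genes, from -0.77 to 0.13. A fall as large as that of RALFL31 therefore lies within its interval. Without replicate 1 of 35S:miR396 the value was -0.13, and without replicate 3 of wild type -0.18. Leaving out any other single array gave a larger fall, from -0.36 without replicate 1 of wild type to -0.45 without replicate 2 of 35S:miR396.

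RALFL34 encodes a peptide that binds the receptor kinase THESEUS1 (THE1) and takes part in the initiation of lateral roots. Its values were 9.13, 9.33 and 9.47 in 35S:miR396, against 9.30, 9.46 and 9.38 in wild type. Both the highest and the lowest of the 6 values were in 35S:miR396. The log2 fold change was -0.07 ± 0.10 (SE; 95% interval -0.30 to 0.16, adjusted p = 0.612), and it was 0.02 without replicate 1 of 35S:miR396. The upper bound of this interval lies below the lower bound for RALFL32 (0.61), as do those of RALFL22, RALFL24, RALFL31 and RALFL33.

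RALFL27 was not tested, since only 1 of its 6 values reached 4. Its values were 3.11, 3.91 and 4.38 in 35S:miR396, against 3.06, 2.78 and 2.86 in wild type. All 3 arrays of 35S:miR396 were above those of wild type, but replicate 1 by only 0.05, and the range within 35S:miR396 was 1.27. RALFL27 averaged 3.80 ± 0.64 in 35S:miR396 and 2.90 ± 0.14 in wild type (SD, n = 3 each). With no filter, the difference of 0.90 did not pass limma's test (adjusted p = 0.24, 4.14% of all probe sets called). RALFL27 reached 3 in every 35S:miR396 array but not in replicates 2 and 3 of wild type. It thus passed a filter at 3 only through the group where it was high. Its adjusted p from limma there (0.0744, 22.3% of all tested probe sets called) is therefore no fair test. GCRMA compresses values near the floor, so no fold is given.

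The 4 remaining genes were at the floor, defined as within 0.1 of the lowest value of the array, in all 6 arrays. RALFL25 had the lowest value of the array, 2.25, in each of them, and RALFL28 repeated 2.31 in each. RALFL18 lay at 2.25 or 2.26 throughout, and RALFL26 at 2.25 in all arrays but replicate 1 of wild type, where it had 2.27. RALFL25 and RALFL26, which are known as pollen peptides, lie side by side in the genome, with no protein-coding gene between them in the TAIR10.1 table. About 35% of all probe sets lay at the floor in each array, from 35.1% to 35.4%. A gene at the floor was not measurable on these arrays, and neither its absence nor a change in it can be read from the values.

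**Figure D3:**
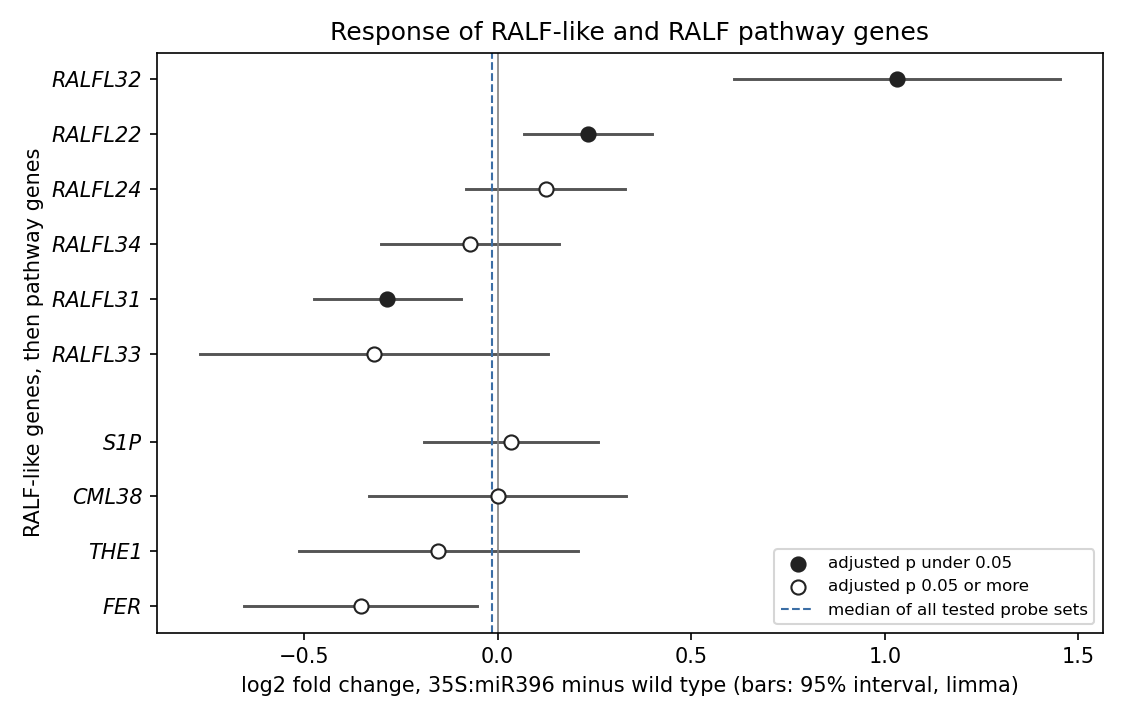
Log2 fold change (35S:miR396 minus wild type) of the 6 tested RALF-like genes and, below them, the 4 tested genes of the RALF pathway, with 95% intervals from limma; filled points passed an adjusted p of 0.05 and the dashed line is the median of all tested probe sets (-0.01). Only the interval of RALFL32 (0.61 to 1.45) lies wholly above 0.5, and none of the 4 pathway genes passed.

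The called RALF-like genes moved in both directions. Set against each other within the same array, where a shift in the scale of the whole array cancels, RALFL32 relative to RALFL31 was higher by 1.36, 1.49 and 1.11 in replicates 1, 2 and 3 of 35S:miR396 than the wild-type mean, and single wild-type arrays lay from -0.39 to 0.21 around that mean. The change in this difference was 1.32 on the log2 scale, and RALFL22 relative to RALFL31 changed by 0.52. Since RALFL31 fell and the others rose, with separate groups, these differences had to separate the genotypes too, and they serve only to give the size. RALFL32 and RALFL22, which rose together, differed in change by 0.80, with a two-sided exact permutation p of 0.1, the smallest that 3 arrays against 3 allow. It was 0.15 with Benjamini-Hochberg adjustment over the 15 pairs of the 6 genes, so that this test cannot pass 0.05 for any pair. RALFL31 and RALFL33, both with negative fold changes, differed in change by 0.03 (exact permutation p = 1).

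**Figure D4:**
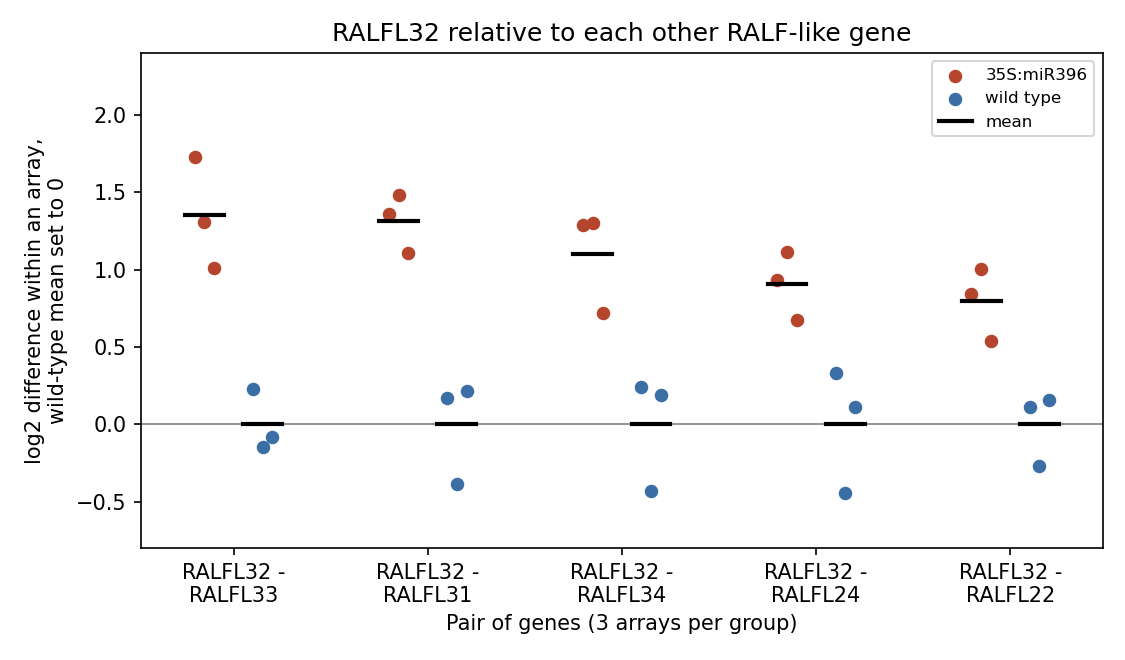
Difference between the log2 value of RALFL32 and that of each other tested RALF-like gene within each array (points), with the wild-type mean of each pair set to 0, 35S:miR396 left of wild type and black bars for the mean of 3 arrays. The 35S:miR396 arrays lie above the wild-type arrays for all 5 pairs, with changes from 0.80 (against RALFL22) to 1.35 (against RALFL33). All 5 share RALFL32, the tested gene with the largest change, so their separation was largely set in advance and they only give the size. Of all 15 pairs, 10 separated the groups.

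RALFL31 and RALFL32 lie on the same chromosome with 12 genes between them, of which 10 are protein-coding. Only 3 of these 12 had a named probe set of their own and 2 were tested. Neither AT4G14000, at a log2 fold change of 0.27 ± 0.09 (SE, adjusted p = 0.0722), nor AT4G13990, at 0.64 ± 0.22 (adjusted p = 0.0752), passed the test. The third, AT4G13960, was at 2.25 in all arrays.

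The RALF pathway genes, from receptors and wall partners to processing and downstream genes, were mostly at the floor or without a named probe set. The annotation used gave 1 gene for 13513 of the 22746 probe sets, several for 503 and none for 8730. A gene without a named probe set may therefore still be measured on the array. Of 47 genes on 3 lists, 23 had a named probe set and only 4 of them could be tested, with a median log2 fold change of -0.08. None passed limma's test, although 1 of the 4, FER, had an unadjusted p under 0.05. Of 17 CrRLK1L receptor genes, 12 had a named probe set. Of these, 9 were at the floor in all arrays, and FER and THE1 were tested. FER, the receptor of RALF1 and several other RALF peptides, had values of 7.43, 7.87 and 7.59 in 35S:miR396, against 8.14, 7.90 and 7.92 in wild type. Its groups were separate by 0.03, and replicate 2 of 35S:miR396 was the array next to wild type. The log2 fold change of FER was -0.35 ± 0.13 (SE, adjusted p = 0.0818), and leaving out replicate 2 of 35S:miR396 gave -0.47, which passed (adjusted p = 0.0191; 0.0191 to 0.236 over the alternatives). THE1, the receptor of RALFL34, had values of 6.26, 6.86 and 6.53 in 35S:miR396, against 6.78, 6.70 and 6.64 in wild type, and its groups overlapped (-0.15 ± 0.15, SE, adjusted p = 0.482). The value of THE1 was -0.0065 without replicate 1 of 35S:miR396 and -0.31 without replicate 2.

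Of the 15 genes of LLG coreceptors and LRX wall proteins, 8 had a named probe set and none was tested. The highest value among the 8 was 3.30, for AT3G24480, which encodes LRX4. On the list of RALF processing and downstream genes 2 of 15 were tested. S1P, the subtilase that cuts RALF23 from its precursor, stood at 0.04 ± 0.10 (log2 fold change, SE, adjusted p = 0.807). CML38, a calmodulin-like protein that binds RALF1, stood at 0.00044 ± 0.14 (adjusted p = 0.998). THE1 and CML38 are named in addition to the rule for named genes, after their values were seen, because so few of the list could be tested.

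To place the RALF-like genes among the other named transcripts, the 3 genes with the most similar profile over the 6 arrays were taken for each, out of 873 tested probe sets with 1 gene and a symbol of its own. The measure is Pearson's correlation over 6 arrays in 2 groups, and it is a description. For RALFL32, RALFL22 and RALFL31 it mostly carries the difference between the groups. For RALFL33, RALFL24 and RALFL34 it also carries the scatter of the arrays within a group. Genes picked in this way largely share the change of the RALF-like gene, so their own changes add no support. The profile of RALFL32 was most like those of PMEAMT, a methyltransferase gene of phospholipid synthesis (r = 0.994), LCR68, a gene of a small cysteine-rich secreted protein (0.988), and SOL1 (0.983), all 3 of which rose. LCR68 had the largest change of the 3, with a log2 fold change of 1.75. PMEAMT was also among the 3 most like RALFL22 (0.972), with the myosin gene XI-I (0.978) and the carboxypeptidase-like gene SCPL45 (0.955), and these rose too.

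RALFL31 was most like HTB11, a histone H2B gene (0.993), ENOC, an enolase gene (0.988), and ATMDAR2, a monodehydroascorbate reductase gene (0.987), and all 3 fell, by log2 fold changes of -0.56, -0.42 and -0.80. The genes most like RALFL33 were COB, which encodes the cell wall protein COBRA (0.988), NDB2, a mitochondrial NAD(P)H dehydrogenase gene (0.985), and SECA2, a gene of plastid protein transport (0.983). For RALFL24 they were SCPL49 (0.94), scpl50 (0.93) and the actin-binding protein gene NET1B (0.915), and for RALFL34 PYRB, an enzyme gene of pyrimidine synthesis (0.943), UBP16, a deubiquitinase gene (0.893), and CHIL (0.861). None of the 9 genes most like RALFL33, RALFL24 and RALFL34 passed the test.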

How the data were processed

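Total RNA of 6 samples was amplified from the 3' end and biotin-labelled, per the labels' protocols. The deposited file holds 1 log2 value per probe set and array, which the authors made using GCRMA (submitters' processing notes). Its version is not given in the sources used here. The log2 scale, without centring of genes, was inferred from the range of the numbers (2.25 to 14.3). Groups came from the sample titles. The 64 control probe sets were left out, and no further normalization was applied. R 4.3.3 and limma 3.58.1 (lmFit, then eBayes with trend) were run on all 11364 tested probe sets, two-sided, with Benjamini-Hochberg adjustment over all of them, after a test of the fit on simulated data. The number of arrays limits the precision. Probe sets were named from the platform annotation, and 11 of 11 members matched the TAIR10.1 gene table. Probe sequences were not used, so cross-hybridisation within the family was not checked. The members and lists were chosen with earlier results of these data known. Named genes are all members, the called or otherwise lowest-p genes of the pathway lists, and the 3 most similar profiles. Alternatives changed the filter, variance prior, scaling, array weights, replicate block and arrays included. Same-numbered samples deviated from their group means with correlations of 0.40, -0.09 and 0.14, so the numbers were not taken to pair them.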

Additional observations from a re-analysis of the deposited data

How the results depend on the processing

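The direction of RALFL22, RALFL24, RALFL31, RALFL32 and RALFL33 held under all 14 alternatives, and RALFL24, RALFL33 and RALFL34 were called in none. With no filter on low values 941 probe sets and 1 RALF-like gene were called, and RALFL32 (1.03, adjusted p = 0.0676) and RALFL22 (0.23, 0.0634) lost the call, where more probe sets share the adjustment and the variance prior. RALFL22 also lost it with no trend (0.23, adjusted p = 0.0619) and with median centring (0.15, 0.141). Under the replicate block 1 RALF-like gene, RALFL32, was called, and RALFL31 (-0.28, adjusted p = 0.0712) and RALFL22 (0.23, 0.0802) were not, while 2844 probe sets were called in all. Array weights gave 4749 probe sets. With 1 array left out, the count of probe sets ran from 1052 to 3813, that of RALF-like genes from 1 to 2 and that of pathway genes from 0 to 1. Over those fits the log2 fold change ran from 0.20 to 0.26 for RALFL22, from 0.04 to 0.17 for RALFL24, from -0.31 to -0.26 for RALFL31, from 0.86 to 1.14 for RALFL32, from -0.15 to 0.0202 for RALFL34, from -0.31 to -0.0065 for THE1, from -0.0189 to 0.083 for S1P and from -0.104 to 0.0756 for CML38. One pathway gene, FER, was called with median centring (1 gene, -0.44) and with array weights (1 gene, -0.36). S1P turned to -0.0478 with median centring and to -0.0016 with array weights, and CML38 to -0.0775 with a further quantile normalization and -0.0825 with median centring. Median centring moved the median of all tested probe sets to -0.10 and left 32.7% of the calls higher, against 50.7%. The cause of these changes was not tested. GCRMA's floor limits what can be said of dim genes.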
